A study of Mus musculus with 20 samples.

Results

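The 38 genes described here make, regulate, store and move cholesterol and fatty acids. They comprise 13 enzymes of sterol synthesis, 3 genes of the SREBP control (Srebf1, Srebf2 and Insig1), 7 genes of fatty acid synthesis, 7 genes of the LXR and efflux arm, and 8 genes of oxysterol production, storage, uptake and lysosomal trafficking. They were taken from a fixed list by symbol, out of 25392 genes in the library tables, and each of the 38 matched exactly 1 row of both annotated count tables. All 23 genes of the first 3 lists are called synthesis genes, and the other 15 are called efflux and uptake genes.

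Cells make cholesterol from acetyl groups through the mevalonate pathway. When membrane sterol is low, SREBP transcription factors leave the endoplasmic reticulum and switch on the genes of this pathway, and when sterol is high, the INSIG proteins hold SREBP back. Excess sterol is turned into oxysterols, which activate the liver X receptors (LXR) and with them genes of cholesterol export such as Abca1, Abcg1 and Apoe. Microglia and macrophages take up lipid with the debris they clear, and either export it or store it in droplets.

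CD45+ cells, which are cells of the blood lineage, were sorted from eyes of C57BL/6 mice aged 8 weeks, and single-cell libraries were made by mCEL-Seq2, which counts transcripts with molecular identifiers. The groups were retina 3 days and 7 days after laser lesioning (labelled CNV, for choroidal neovascularization), cornea, ciliary body, and unlesioned retina, with 4 libraries of 192 wells each, 20 in all. About 6 mice in 3 experiments stand behind the series. The labels do not tie libraries to mice, so p-values measure the spread between libraries, which may be technical. No other genotype or agent is labelled in any group.

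The authors annotated 829 of 3840 wells, as microglia, macrophages, dendritic cells or a joint class that takes in granulocytes, lymphocytes and monocytes. Transcripts were summed over the wells of a class in each pair of libraries that share a prefix (P1, P2 and so on). This gives 2 sums per group. A level is given in CPM, the transcripts per 1000000 transcripts of the genes kept in the annotated tables, and values appear in the order of the prefixes. Library totals ran from 371329 to 3325825 transcripts. The sums that enter a test held 45538 to 464282 transcripts from 10 to 88 wells, so that in the smallest of them 1 transcript is worth about 22.0 CPM. The authors' tables leave out mitochondrial and some other genes, which held 51.9 to 56.9% of the transcripts of unlesioned microglia, 30.0 to 32.4% at day 3 and 44.3 to 47.4% at day 7. The 8 microglia markers summed to 23856 and 26168 CPM in unlesioned microglia of the eye table, against 2040 and 1554 CPM in cornea macrophages and 2547 and 2823 CPM in ciliary body macrophages. The macrophages carried Mrc1 at 330.3 to 402 CPM in the cornea and 122 to 292 CPM in the ciliary body, while Mrc1 was at 0 in microglia. Dendritic cell markers, a list of 6, summed to 15673 and 16862 CPM in day 3 dendritic cells and 612 and 875 CPM in day 3 microglia. Macrophages also held that list, below the dendritic sums, at 10750 and 11288 CPM in the cornea and 15232 and 12646 CPM in the ciliary body. In all, 111 wells are in both annotated tables, so the unlesioned microglia of the retina and of the eye comparisons are largely the same wells.

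Of the 38 genes, 27 passed the filter on low counts in at least 1 comparison and 25 passed the threshold (adjusted p under 0.05 over all genes tested) in at least 1 of 10 comparisons. The 11 genes that could not be tested anywhere were Abcg1, Acaca, Dhcr7, Fasn, Lss, Mvd, Mvk, Nr1h3, Nsdhl, Scd1 and Srebf1. Most synthesis genes were near the detection limit in microglia: 1 of 23 passed the filter in the comparison of microglia over time, against 13 of 15 efflux and uptake genes.

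The promoters of 3 synthesis genes are shown because each of these genes was higher in cornea macrophages than in microglia, as described below. They cover 250 bases before to 50 bases after the gene start, from RefSeq on GRCm38.p6, a build used here for the sequences only. Capitals mark the NF-Y box CCAAT or its reverse complement ATTGG and, in Hmgcs1, the sterol regulatory element TCACNCCAC, found here as TCACCCCAC. The windows are chr13:119690101-119690400 on the plus strand for Hmgcs1, the synthase that feeds the mevalonate pathway, chr13:8885356-8885655 on the plus strand for Idi1, the isomerase of the isoprene units, and chr5:4104648-4104947 on the minus strand for Cyp51, the lanosterol demethylase.
Hmgcs1: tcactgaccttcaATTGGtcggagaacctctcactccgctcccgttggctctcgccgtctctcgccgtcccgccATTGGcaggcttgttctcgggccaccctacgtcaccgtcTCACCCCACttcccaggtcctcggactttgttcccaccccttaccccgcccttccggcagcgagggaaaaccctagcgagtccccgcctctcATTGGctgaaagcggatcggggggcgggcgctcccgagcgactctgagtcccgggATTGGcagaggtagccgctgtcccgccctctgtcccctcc
Idi1: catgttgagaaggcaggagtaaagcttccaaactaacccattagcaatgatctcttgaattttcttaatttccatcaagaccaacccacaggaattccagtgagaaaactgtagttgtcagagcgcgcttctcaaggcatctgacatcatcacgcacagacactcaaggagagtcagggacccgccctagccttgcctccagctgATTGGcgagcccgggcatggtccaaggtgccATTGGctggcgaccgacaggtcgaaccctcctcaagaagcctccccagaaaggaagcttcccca
Cyp51: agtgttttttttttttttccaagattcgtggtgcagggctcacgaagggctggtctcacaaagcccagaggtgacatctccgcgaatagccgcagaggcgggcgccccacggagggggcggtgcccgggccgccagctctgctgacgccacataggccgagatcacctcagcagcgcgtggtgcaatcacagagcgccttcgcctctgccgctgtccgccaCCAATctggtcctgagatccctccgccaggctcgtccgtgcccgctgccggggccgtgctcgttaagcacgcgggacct
Promoter windows were found for 29 of the 38 genes. The CCAAT box, on either strand, was in 16 of 18 synthesis genes, among them all 10 sterol synthesis genes with a window, and in 5 of 11 efflux and uptake genes. It was in 41.1% of all 27025 genes with a window. The sterol regulatory element was found in Hmgcs1 alone of the 29, and in 1.44% of all genes. The LXR response element, searched as GGTCA, any 4 bases and AGGTCA, was in none of the 29 and in 0.0222% of all genes. The boxes do not overlap in the windows shown. A match is a description of these letters and not a measured binding site.

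The synthesis and the efflux arms had different profiles across the cell classes. The 23 synthesis genes summed to 2094 and 2302 CPM in cornea macrophages, 1066 and 1002 CPM in ciliary body macrophages and 416 and 591 CPM in retinal microglia. In the lasered retina they summed to 953 and 756 CPM in dendritic cells, 716 and 762 CPM in the joint class and 411 and 614 CPM in microglia at day 3. At day 7 they summed to 1078 and 879 CPM in dendritic cells, 727 and 609.7 CPM in the joint class and 423 and 487 CPM in microglia, and unlesioned microglia held 414 and 503 CPM. Synthesis levels were highest in cornea macrophages. At day 3 and at day 7 both microglia sums were below the dendritic and joint-class sums of that day. The 15 efflux and uptake genes summed to 11768 and 9646 CPM in cornea macrophages, 20657 and 14692 CPM in ciliary body macrophages and 2447 and 3194 CPM in retinal microglia. With Apoe left out the same sums were 1707 and 1768 CPM in cornea macrophages, 1720 and 1779 CPM in ciliary body macrophages and 1816 and 2294 CPM in retinal microglia, so that microglia had the higher sums. That order depends on the total behind CPM, since the tables leave out a larger share of microglial transcripts. Per 1000000 transcripts of all library genes, the sums were 1166 and 1256 in cornea macrophages, 1174 and 1160 in ciliary body macrophages and 736 and 1033 in microglia, with the macrophages higher. These sums are described without a test.

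**Figure D1:**
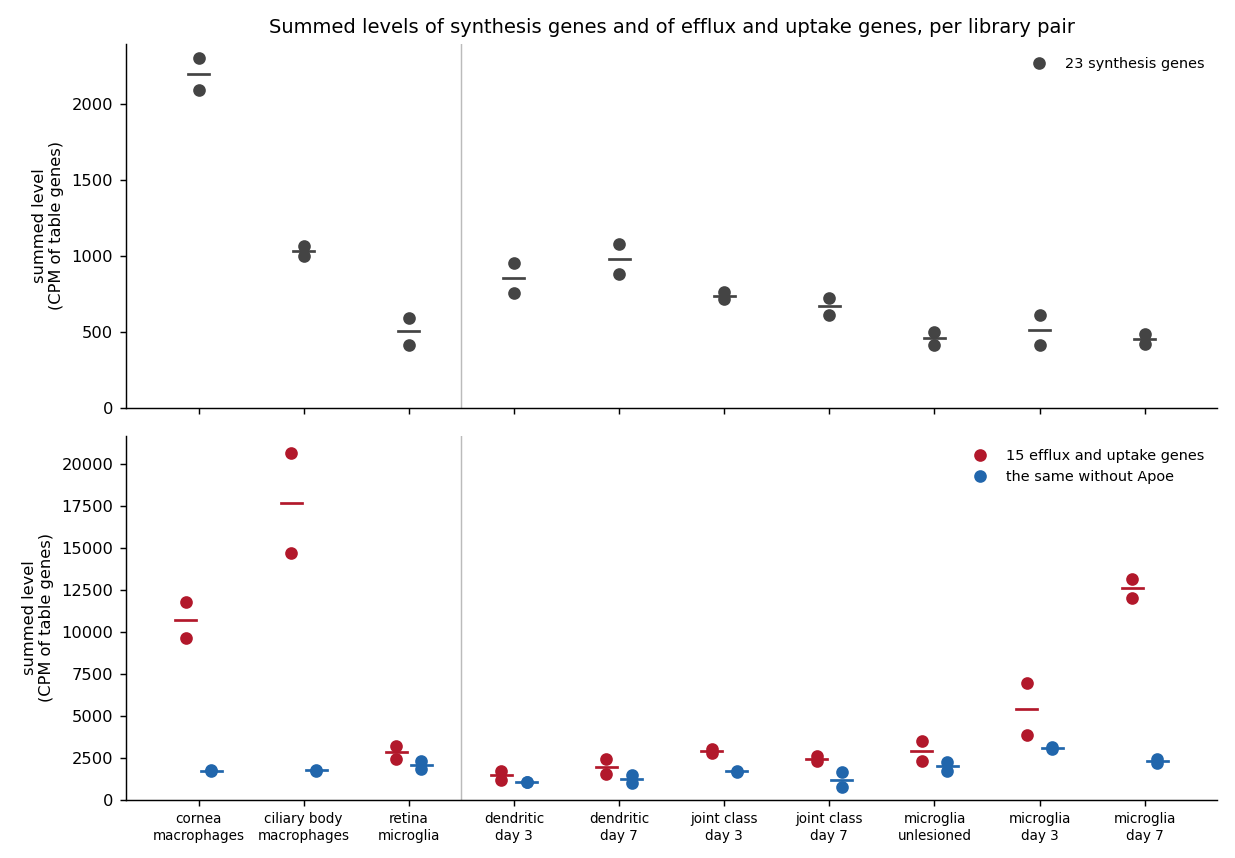
Summed level in CPM of the annotated tables' genes for 23 synthesis genes (upper panel) and for 15 efflux and uptake genes with and without Apoe (lower panel); each point is the sum over 1 library pair and the line is the mean of 2. Left of the grey line are the 3 unlesioned compartments and right of it the classes of the retina. Synthesis genes stand at 2094 and 2302 CPM in cornea macrophages, and Apoe accounts for the high efflux sums of macrophages and of day 7 microglia.

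In microglia 3 days after laser, 5 of the 14 tested genes rose and none fell, against 22.6% of all 3408 genes called in either direction (11.7% higher). All 5 belong to the oxysterol, storage and uptake list of 8 genes: Ch25h, Plin2, Fabp5, Lpl and Lrp1. None of the 5 tested LXR and efflux genes passed. The median log2 fold change was 0.75 over the 14 tested genes and 0.01 over all genes. Ch25h, Plin2 and Fabp5 passed the filter on low counts through their day 3 sums, where they are high. The count of genes that rose and this median are therefore a description. DESeq2 called none of the 5: it gave Lpl an adjusted p of 0.0620 and Lrp1 one of 0.154, and gave none for Ch25h, Plin2 and Fabp5.

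Ch25h, the enzyme that hydroxylates cholesterol to an oxysterol, stood at 0 and 6.80 CPM in unlesioned retina, 292 and 211 CPM at day 3 and 6.51 and 53.1 CPM at day 7. Both day 3 sums were far above the other 4, and unlesioned microglia held 1 transcript in all. The ratio of summed transcripts, day 3 over unlesioned, was 50.5 (interval 8.81 to 2021), a 95% exact counting interval as in all such ratios here, with adjusted p = 7.13e-05. At day 7 the level was lower than at day 3 again, with a log2 fold change of -3.16 ± 0.57 (SE) and adjusted p = 0.00109. The transcripts were not spread evenly, since 9 of the 81 day 3 wells held 82.1% of them and 61 wells held none.

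Plin2, the coat protein of lipid droplets, stood at 0 and 20.4 CPM in unlesioned retina, 109.6 and 132.8 CPM at day 3 and 13.01 and 17.7 CPM at day 7. The day 3 sums did not overlap the others. The ratio of day 3 to unlesioned transcripts was 8.86 (interval 2.83 to 44.7), adjusted p = 0.00804. Day 7 was below day 3, with a log2 fold change of -2.95 ± 0.76, adjusted p = 0.0149. Fabp5, a carrier of fatty acids within the cell, stood at 15.3 and 6.80 CPM in unlesioned retina, 82.2 and 119.1 CPM at day 3 and 6.51 and 17.7 CPM at day 7. Again both day 3 sums were above the rest. Its day 3 to unlesioned ratio was 11.3 (interval 2.91 to 97.3), adjusted p = 0.0146. Its day 7 to day 3 ratio was 0.105 (interval 0.0207 to 0.334), adjusted p = 0.0251. The day 3 calls of both genes depended on 1 pair. Plin2 was lost without the day 3 pair P2 (adjusted p = 0.181), and Fabp5 without the unlesioned pair P2 (adjusted p = 0.178). Of the day 7 to day 3 calls, Plin2 was lost without the day 3 pair P2 (adjusted p = 0.265) and without the day 7 pair P1 (adjusted p = 0.0736). Fabp5 was lost without the day 7 pair P1 (adjusted p = 0.181).

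Lpl, the lipase that frees fatty acids from lipoprotein triglyceride, stood at 107 and 272 CPM in unlesioned retina, 557 and 449 CPM at day 3 and 130.1 and 176.97 CPM at day 7. The day 3 sums were the 2 highest of 6. The log2 fold change over unlesioned microglia was 1.26 ± 0.33, adjusted p = 0.00854. Day 7 was below day 3, with a log2 fold change of -1.71 ± 0.34, adjusted p = 0.00235. Lrp1, an endocytic receptor of lipoproteins and many other ligands, stood at 337 and 394 CPM in unlesioned retina, 739.7 and 568 CPM at day 3 and 384 and 380.5 CPM at day 7. Its day 3 sums were above the other 4, with a log2 fold change over unlesioned microglia of 0.81 ± 0.25 and adjusted p = 0.0252. The day 7 to day 3 difference of Lrp1 did not pass (log2 -0.75 ± 0.24, adjusted p = 0.0527). Its day 3 call was lost without the unlesioned pair P1 (adjusted p = 0.0522) and without the day 3 pair P1 (adjusted p = 0.119).

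**Figure D2:**
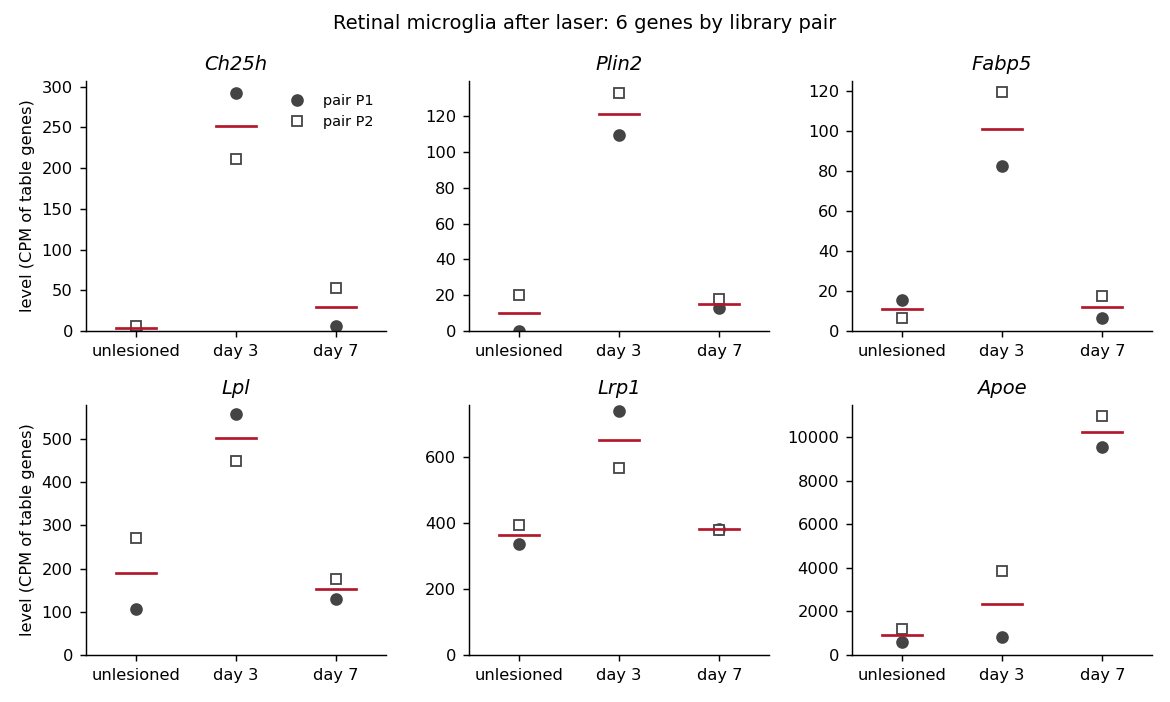
Level in CPM of 6 genes in annotated retinal microglia of unlesioned retina and 3 and 7 days after laser; filled circles are pair P1, open squares pair P2 and red lines the mean of 2. Ch25h, Plin2, Fabp5, Lpl and Lrp1 are highest at day 3, and Apoe is highest at day 7, at 9538 and 10981 CPM.

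Day 7 differed from day 3 in 4 of the 14 tested genes, all lower at day 7, against 9.57% of all genes (4.52% higher, 5.05% lower). They are Ch25h, Lpl, Plin2 and Fabp5, described above. Since Ch25h, Plin2 and Fabp5 were tested through their day 3 sums, where they are high, this count and its direction are a description. DESeq2 called Lpl and gave the other 3 no adjusted p. Alternatives also called members as higher at day 7 than at day 3. Abca1 passed with the prefix as a block (adjusted p = 0.0335), in single libraries (0.0383) and without the unlesioned pair P2 (0.0393). Apoe passed in single libraries (adjusted p = 0.0206) and in wells with the microglia signature (0.00137). It also passed without either day 3 pair (log2 1.33 without P1, 3.63 without P2). Those fits keep 1 day 3 sum of Apoe and so lose the spread between the day 3 sums, which lay far apart. Against unlesioned retina, no gene of the 14 passed at day 7, where 1.56% of all genes did (1.12% higher). Of these 14, 2 had an unadjusted p under 0.05, and DESeq2 called 1, Apoe, with 10 of the 14 given no adjusted p.

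Apoe, the lipoprotein component that carries exported cholesterol, stood at 613 and 1210 CPM in unlesioned retina, 831 and 3852 CPM at day 3 and 9538 and 10981 CPM at day 7. These levels rest on 218 transcripts in unlesioned retina, 933 at day 3 and 2707 at day 7. Both day 7 sums were above all others, and the 2 sums of day 3 lay far apart. The log2 fold change of day 7 over unlesioned microglia was 3.45 ± 0.96 and did not pass in edgeR (adjusted p = 0.278), whereas it did in DESeq2 (adjusted p = 0.0115). Over all 16 alternatives the log2 fold change ran from 3.13 to 4.14 with 5 calls. These came in DESeq2, in single libraries (adjusted p = 0.0124), in wells with the microglia signature (0.00107) and without either day 3 pair. Without the filter on low counts the adjusted p was 0.908. At day 3 over unlesioned retina Apoe passed in 1 alternative, without the day 3 pair P1 (log2 2.16). Leaving out a day 3 pair leaves 5 sums and takes away the spread between the day 3 sums, so p-values of those fits are not given. At day 3, 1 of 81 wells held 24.6% of the Apoe transcripts. At day 7 the 12 wells with the most held 48.96% and 13 wells held none.

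The authors' clusters of microglia placed these genes in different wells, which is given as a description because the clusters rest on the same genes. Cluster 6, with 39 of its 47 wells from day 3, held Ch25h at 323 CPM, Lpl at 525 CPM, Plin2 at 131 CPM and Apoe at 1558 CPM. Cluster 14, with 15 of its 18 wells from day 7, held Apoe at 34590 CPM, Lpl at 67.6 CPM, and Ch25h at 22.5 CPM, which is 1 transcript. Cluster 11, with 21 of its 26 wells from day 7, held Apoe at 17780 CPM and Lpl at 308 CPM. The high Ch25h and the high Apoe thus lay in separate clusters, and cluster 4, with 56 of its 81 wells from unlesioned retina, held Apoe at 1133 CPM.

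The other tested genes of microglia showed no call over time. Abca1, the exporter that loads cholesterol onto lipoproteins, stood at 138 and 224 CPM in unlesioned retina, 128 and 219.9 CPM at day 3 and 299 and 380.5 CPM at day 7. Npc2, which hands cholesterol out of the lysosome, stood at 429 and 571 CPM in unlesioned retina, 466 and 774 CPM at day 3 and 846 and 628 CPM at day 7. Both day 7 sums of Abca1 were above its other 4, while those of Npc2 overlapped the day 3 sums. Mylip, which marks lipoprotein receptors for degradation, stood at 276 and 313 CPM in unlesioned retina, 164 and 151 CPM at day 3 and 267 and 150.4 CPM at day 7. The day 3 difference of Mylip came nearest to a fall among the members (log2 -0.91 ± 0.34, adjusted p = 0.0516). It passed as lower in 3 alternatives, with the prefix as a block (adjusted p = 0.0394), in single libraries (0.0205) and without photoreceptor wells (0.0400). Acly, which makes the acetyl-CoA for synthesis and was the only synthesis gene tested, stood at 123 and 74.8 CPM in unlesioned retina, 128 and 188 CPM at day 3 and 117 and 106 CPM at day 7. Its day 3 log2 fold change over unlesioned microglia was 0.83 ± 0.44 (adjusted p = 0.163). Summed, the 23 synthesis genes held 414 and 503 CPM in unlesioned retina, 411 and 614 CPM at day 3 and 423 and 487 CPM at day 7. Per 1000000 transcripts of all library genes the sums were 178.3 and 242 in unlesioned retina, 287 and 415 at day 3 and 235 and 256 at day 7. With that total both day 3 sums were above both unlesioned sums, whereas with CPM they overlapped.

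Other markers moved with the day 3 microglia. The 6 cell cycle markers summed to 123 and 95.2 CPM in unlesioned retina, 2119 and 1237 CPM at day 3 and 71.6 and 248 CPM at day 7, and 5 of the 6 passed as higher at day 3. The 8 photoreceptor markers summed to 3891 and 7204 CPM in unlesioned retina, 1635 and 2817 CPM at day 3 and 7072 and 8822 CPM at day 7. The 8 Müller glia and astrocyte markers summed to 1225 and 1339 CPM in unlesioned retina, 347 and 779 CPM at day 3 and 1496 and 1274 CPM at day 7. Both sets had their lowest sums at day 3. The 6 monocyte markers summed to 76.6 and 54.4 CPM in unlesioned retina, 45.7 and 545 CPM at day 3 and 189 and 115.03 CPM at day 7, with none of these genes called and the day 3 sums far apart. All 8 microglia markers were lower at day 3 than in unlesioned retina, summing to 22900 and 25868 CPM in unlesioned retina, 10995 and 12922 CPM at day 3 and 15283 and 15299 CPM at day 7. An alternative chosen after seeing the data left out 1 well of unlesioned retina, 21 wells of day 3 and 3 wells of day 7 in which the cell cycle markers held at least 0.1% of transcripts. There 4 of the 5 day 3 calls held, with adjusted p = 1.08e-04 for Ch25h, 0.0136 for Fabp5, 0.0104 for Plin2 and 0.0103 for Lpl. Lrp1 did not pass (log2 fold change 0.73, adjusted p = 0.0595). Restricted to wells that the authors' signature also calls microglia, 60 of 81 at day 3, 3 genes were called at day 3. Plin2 did not pass in those wells (log2 2.69, adjusted p = 0.0789). The part of the glial and photoreceptor transcripts in these results was not tested beyond leaving out the few wells with at least 1% photoreceptor transcripts. After that Ch25h, Plin2, Lpl and Lrp1 were called again, Fabp5 could not be tested, and Mylip was called as lower.

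In the wider pathway, of the 12 other sterol genes 1 could be tested, of the 11 other fatty acid genes 2, of the 13 other efflux genes 5 and of the 15 other uptake and storage genes 2. At day 3 none of these 10 rose and 2 fell, beside 22.6% of all genes called. Mlxipl, a carbohydrate-responsive factor of lipid synthesis, had 147 to 174 CPM at day 3 and 398 to 421 CPM in unlesioned retina (log2 -1.37 ± 0.30, adjusted p = 0.00236). Trem2, a lipid-sensing receptor of microglia, had 621 to 751 CPM at day 3 and 938 to 1241 CPM in unlesioned retina (log2 -0.62 ± 0.21, adjusted p = 0.0398). At day 7 Trem2 stood at 1221 to 1262 CPM, above day 3 by 0.85 ± 0.21 on the log2 scale (adjusted p = 0.0135).

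In cornea macrophages, 16 of the 26 tested genes were higher and 2 lower than in microglia of unlesioned retina, against 33.1% of all 4705 genes called (17.3% higher). The 16 hold 13 of the 14 tested synthesis genes and 3 of the 12 tested efflux and uptake genes. In ciliary body macrophages 9 were higher and 2 lower, against 29.2% of all genes (16.6% higher), with 6 of the 14 synthesis genes and the same number of efflux and uptake genes, 3, higher. Compartment and cell type cannot be told apart here, since the retina gives the microglia and the other compartments give the macrophages, and the same retinal sums serve both comparisons. Synthesis genes that passed the filter did so through groups where they are high, so these counts leave out the 9 untested ones and are a description. Among the untested, Dhcr7, the last enzyme of cholesterol synthesis, stood at 19.9 and 48.6 CPM in the cornea, 15.4 and 15.5 CPM in the ciliary body and 15.4 and 48.1 CPM in the retina, and Acaca, which makes malonyl-CoA, at 0 and 24.3 CPM in the cornea, 11.5 and 12.9 CPM in the ciliary body and 0 and 13.7 CPM in the retina. The cornea and retina sums of both overlapped. In the fit without the filter on low counts, Lss was called as higher in the cornea than in microglia (log2 6.05, adjusted p = 0.0189). Mvd (log2 5.61, adjusted p = 0.0511) and Scd1 (log2 5.61, adjusted p = 0.0764) did not pass in that fit. Fabp5, an uptake gene that the filter left out here, was called there as higher in the ciliary body (log2 3.64, adjusted p = 0.0132). In the cornea Fabp5 did not pass (log2 3.06, adjusted p = 0.0972). Of the 111 ciliary body wells, 106 held no Fabp5 transcript. In DESeq2 the cornea calls of Elovl5 (adjusted p = 0.0702), Elovl6 (0.105), Lpcat3 (0.148) and Sc5d (0.0618) did not pass. Those of the ciliary body that did not were Cyp51 (adjusted p = 0.0814), Fdps (0.0562), Idi1 (0.0775) and Insig1 (0.107).

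In the first steps of sterol synthesis, Hmgcs1 stood at 189 and 214 CPM in cornea macrophages, 88.5 and 51.8 CPM in ciliary body macrophages and 30.8 and 61.8 CPM in retinal microglia. Idi1 stood at 169 and 219 CPM in the cornea, 76.9 and 67.3 CPM in the ciliary body and 30.8 and 13.7 CPM in the retina. Both cornea sums of either gene were above the ciliary body sums. For Hmgcs1 the log2 fold change over microglia was 2.17 ± 0.49 in the cornea (adjusted p = 0.00317) and 0.69 ± 0.53 in the ciliary body (adjusted p = 0.347). For Idi1 it was 3.50 ± 0.56 in the cornea (adjusted p = 2.58e-04) and 2.13 ± 0.62 in the ciliary body (adjusted p = 0.0149).

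Fdps, which makes farnesyl diphosphate, stood at 99.3 and 165 CPM in the cornea, 69.3 and 41.4 CPM in the ciliary body and 0 and 6.87 CPM in the retina, with 1 transcript in all microglia. Its ratio to microglia was 27.9 (interval 4.801 to 1123) in the cornea (adjusted p = 6.82e-04) and 11.1 (interval 1.86 to 450.4) in the ciliary body (adjusted p = 0.0104). Fdft1, the squalene synthase, stood at 69.5 and 102 CPM in the cornea, 30.8 and 33.7 CPM in the ciliary body and 0 and 13.7 CPM in the retina. Sqle, the squalene epoxidase, stood at 89.3 and 87.4 CPM in the cornea, 15.4 and 41.4 CPM in the ciliary body and 15.4 and 0 CPM in the retina. The cornea to microglia ratio was 9.04 (interval 2.32 to 77.6) for Fdft1 (adjusted p = 0.00520) and 18.6 (interval 3.13 to 755) for Sqle (adjusted p = 0.00417). Neither passed in the ciliary body.

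Among the late enzymes, Cyp51 stood at 139 and 117 CPM in the cornea, 46.2 and 67.3 CPM in the ciliary body and 15.4 and 6.87 CPM in the retina. The macrophage sums of Cyp51 were all above the microglia sums. Its ratio to microglia was 13.4 (interval 3.54 to 114) in the cornea (adjusted p = 6.00e-04) and 6.19 (interval 1.60 to 53.0) in the ciliary body (adjusted p = 0.0100). Msmo1, the methylsterol oxidase, stood at 159 and 165 CPM in the cornea, 53.9 and 72.5 CPM in the ciliary body and 30.8 and 68.7 CPM in the retina. Its cornea log2 fold change over microglia was 1.75 ± 0.47 (adjusted p = 0.00962). Sc5d, a sterol desaturase, stood at 109 and 58.3 CPM in the cornea, 30.8 and 36.3 CPM in the ciliary body and 0 and 20.6 CPM in the retina. Its cornea to microglia ratio was 5.86 (interval 1.84 to 29.8) (adjusted p = 0.0142). Msmo1 and Sc5d did not pass in the ciliary body.

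Of the SREBP genes, Srebf2, the factor that drives sterol synthesis, stood at 109 and 126.3 CPM in cornea macrophages, 131 and 98.4 CPM in ciliary body macrophages and 15.4 and 20.6 CPM in retinal microglia. The 2 kinds of macrophage overlapped, and both lay above microglia, by 2.81 ± 0.60 on the log2 scale in the cornea (adjusted p = 0.00220) and 2.82 ± 0.59 in the ciliary body (adjusted p = 0.00179). Insig1, itself a target of SREBP that holds it back, stood at 119.1 and 82.6 CPM in the cornea, 57.7 and 57.0 CPM in the ciliary body and 30.8 and 0 CPM in the retina. Its ratios to microglia, from 2 microglial transcripts, were 10.6 (interval 2.75 to 90.4) in the cornea (adjusted p = 0.00457) and 6.03 (interval 1.55 to 51.6) in the ciliary body (adjusted p = 0.0260). The Insig1 calls were lost without the unlesioned retina pair P2, at adjusted p = 0.0997 in the cornea and 0.387 in the ciliary body.

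In fatty acid synthesis, Scd2, a desaturase that makes monounsaturated fatty acids, stood at 362 and 364 CPM in cornea macrophages, 50.02 and 64.7 CPM in ciliary body macrophages and 30.8 and 109.9 CPM in retinal microglia. The cornea sums lay far above the other 4, which overlapped each other. Its log2 fold change was 2.35 ± 0.41 for cornea over microglia (adjusted p = 4.73e-04) and 2.58 ± 0.36 for cornea over ciliary body (adjusted p = 6.19e-04). For ciliary body over microglia it was -0.23 ± 0.47 (adjusted p = 0.751). Elovl5, an elongase of polyunsaturated fatty acids, stood at 109 and 92.3 CPM in the cornea, 135 and 129 CPM in the ciliary body and 30.8 and 34.3 CPM in the retina. It was higher in both kinds of macrophage, by 1.79 ± 0.52 on the log2 scale in the cornea (adjusted p = 0.0149) and 2.25 ± 0.49 in the ciliary body (adjusted p = 0.00263). Elovl6, an elongase of saturated and monounsaturated fatty acids, stood at 49.6 and 68.001 CPM in the cornea, 30.8 and 31.1 CPM in the ciliary body and 0 and 13.7 CPM in the retina. Its cornea to microglia ratio was 6.20 (interval 1.54 to 54.1) (adjusted p = 0.0254). Acly was the tested synthesis gene without a call, at 104 and 146 CPM in the cornea, 96.2 and 101 CPM in the ciliary body and 139 and 96.2 CPM in the retina.

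Of the efflux and uptake genes, Apoe stood at 10060 and 7878 CPM in cornea macrophages, 18937 and 12913 CPM in ciliary body macrophages and 631 and 899.7 CPM in retinal microglia. Every macrophage sum was above both microglia sums, and the ciliary body sums were above the cornea sums. The log2 fold change over microglia was 3.75 ± 0.37 in the cornea (adjusted p = 3.03e-06) and 4.66 ± 0.38 in the ciliary body (adjusted p = 9.58e-07). Ch25h stood at 104 and 214 CPM in the cornea, 84.6 and 80.3 CPM in the ciliary body and 0 and 6.87 CPM in the retina. Its ratios, from 1 microglial transcript, were 33.6 (interval 5.82 to 1347) in the cornea (adjusted p = 3.06e-04) and 17.3 (interval 2.97 to 695) in the ciliary body (adjusted p = 0.00225). Plin2 stood at 94.3 and 72.9 CPM in the cornea, 135 and 119.1 CPM in the ciliary body and 0 and 20.6 CPM in the retina, with no overlap between macrophages and microglia. Its ratios were 5.86 (interval 1.84 to 29.8) in the cornea (adjusted p = 0.00838) and 8.80 (interval 2.91 to 43.6) in the ciliary body (adjusted p = 0.00115).

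A pair of genes ran the other way. Lrp1 stood at 124 and 102 CPM in the cornea, 80.8 and 163.2 CPM in the ciliary body and 369 and 426 CPM in the retina. It was lower than in microglia, with a log2 fold change of -1.61 ± 0.35 in the cornea (adjusted p = 0.00281) and -1.41 ± 0.33 in the ciliary body (adjusted p = 0.00460). Lpcat3, which builds polyunsaturated chains into phospholipids, stood at 69.5 and 43.7 CPM in the cornea, 46.2 and 28.5 CPM in the ciliary body and 169 and 179 CPM in the retina. Its log2 fold changes over microglia were -1.40 ± 0.46 (adjusted p = 0.0284) in the cornea and -1.97 ± 0.46 (adjusted p = 0.00426) in the ciliary body. Abca1 and Lpl did not pass in either comparison. Abca1 stood at 159 and 107 CPM in the cornea, 319 and 194 CPM in the ciliary body and 154 and 234 CPM in the retina. Lpl stood at 268 and 277 CPM in the cornea, 223 and 243 CPM in the ciliary body and 123 and 261 CPM in the retina. Without the unlesioned pair P2 both calls of Lrp1 were lost (adjusted p = 0.0507 in the cornea and 0.0873 in the ciliary body). So were both calls of Lpcat3 (adjusted p = 0.200 in the cornea and 0.0570 in the ciliary body). Lpcat3 in the cornea was also lost without either cornea pair (adjusted p = 0.05001 without P2 and 0.283 without P5). In the ciliary body Lpcat3 was lost without the ciliary body pair P4 (adjusted p = 0.0744) and Lrp1 without pair P3 (adjusted p = 0.0802). Of the synthesis calls in the cornea, Elovl5 (adjusted p = 0.0847) and Sqle (adjusted p = 0.0691) were lost without the unlesioned pair P2. Elovl6 was lost without the unlesioned pair P1 (adjusted p = 0.0877) and Sc5d without the cornea pair P2 (adjusted p = 0.0925). In the ciliary body, Cyp51 (adjusted p = 0.174) and Idi1 (adjusted p = 0.229) were lost without the unlesioned pair P2.

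**Figure D3:**
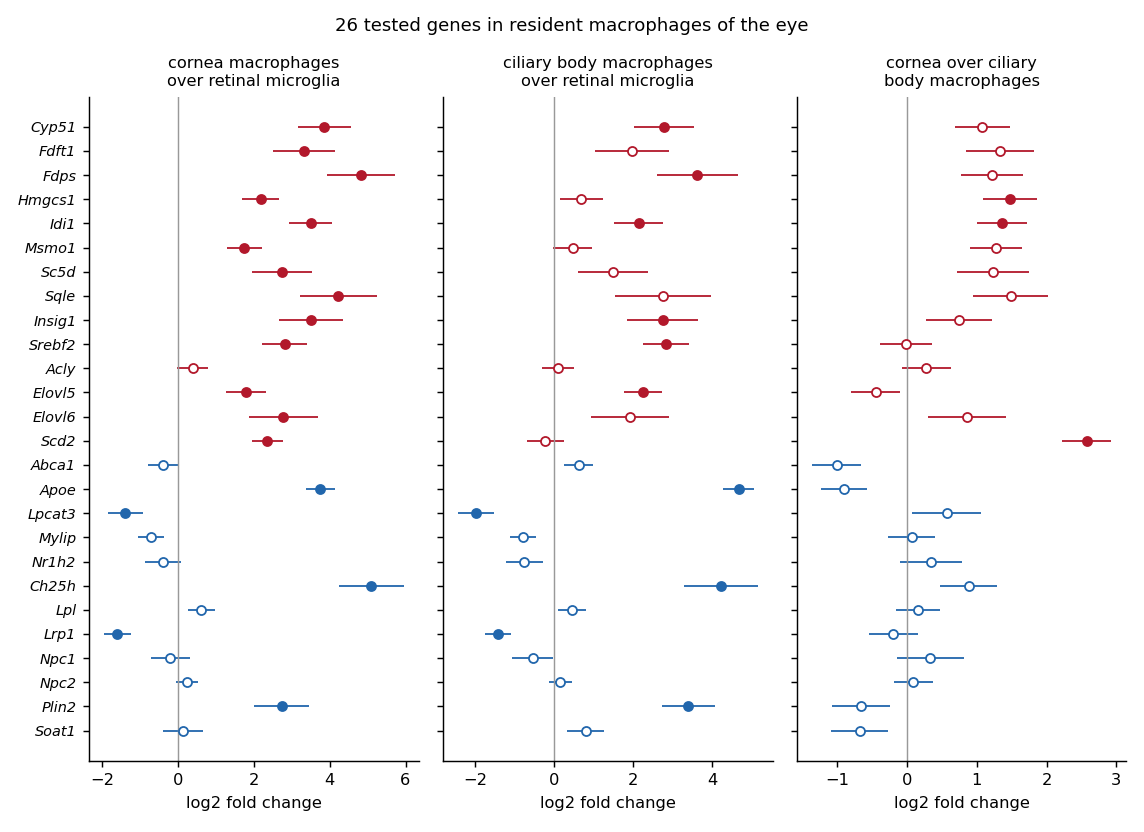
Log2 fold change with its SE for the 26 tested genes in cornea macrophages over retinal microglia, ciliary body macrophages over retinal microglia, and cornea over ciliary body macrophages (2 sums per group, horizontal axes differ). Red marks synthesis genes, blue efflux and uptake genes, and filled points have an adjusted p under 0.05. In the cornea panel 13 of 14 red points are filled, and in the third panel Hmgcs1, Idi1 and Scd2 are.

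Between the 2 kinds of macrophage, 3 of the 26 genes passed, all of them synthesis genes and all higher in the cornea, against 3.55% of all genes (2.49% higher, 1.06% lower). They are Scd2, given above, Hmgcs1 with a log2 fold change of 1.48 ± 0.39 (adjusted p = 0.0453) and Idi1 with 1.36 ± 0.36 (adjusted p = 0.0474). The median log2 fold change was 1.23 over the 14 tested synthesis genes and 0.08 over the 12 tested efflux and uptake genes. Over all genes it was -0.03. Sqle, Fdft1, Sc5d and Elovl6 passed the filter on low counts through the cornea sums, where they are high. The count and these medians are therefore a description. Of the 3 calls only that of Scd2 held under every alternative that was run, and both others were lost in several. Among these were the fits without the cornea pair P5 (adjusted p = 0.111 for Hmgcs1 and 0.304 for Idi1), without the ciliary body pair P4 (0.231 for Hmgcs1 and 0.173 for Idi1) and in DESeq2 (0.295 for Hmgcs1 and 0.337 for Idi1). Idi1 was also lost without the ciliary body pair P3 (log2 1.51). Other members were called in some alternatives. Msmo1 was higher in the cornea in single libraries (log2 1.33, adjusted p = 0.0166) and without either unlesioned retina pair (log2 1.26 without P1, 1.31 without P2). Abca1 (log2 -1.39) and Apoe (log2 -1.205) were called as lower without the ciliary body pair P4. Abca1 was also called as lower without the unlesioned retina pair P1 (log2 -1.025).

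Corneal epithelium transcripts moved with these results. The 4 epithelium markers Krt12, Krt5, Krt14 and Aldh3a1 summed to 18061 and 24796 CPM in cornea macrophages, 0 and 1795 CPM in ciliary body macrophages and 0 and 1600 CPM in retinal microglia. In 71 of the 121 cornea wells they held at least 1% of transcripts, in 2 of the ciliary body wells and in none of the microglia wells. With those wells left out, an alternative chosen after seeing the data, the 23 synthesis genes summed to 2017 and 1614 CPM in the cornea, 1066 and 991 CPM in the ciliary body and 416 and 591 CPM in the retina. The epithelium markers in the remaining cornea wells still summed to 9962 and 8948 CPM. Of the 18 calls of cornea over microglia, 11 genes could be tested again on the 50 remaining wells, and 8 of them were called again: Apoe, Cyp51, Idi1, Lpcat3, Lrp1, Plin2, Scd2 and Srebf2. Hmgcs1 (adjusted p = 0.106), Msmo1 (adjusted p = 0.0847) and Elovl5 (adjusted p = 0.130) were lost. Of the 3 calls between the macrophages Scd2 alone was called again (log2 1.92, adjusted p = 0.0322), with Hmgcs1 at log2 0.62.

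**Figure D4:**
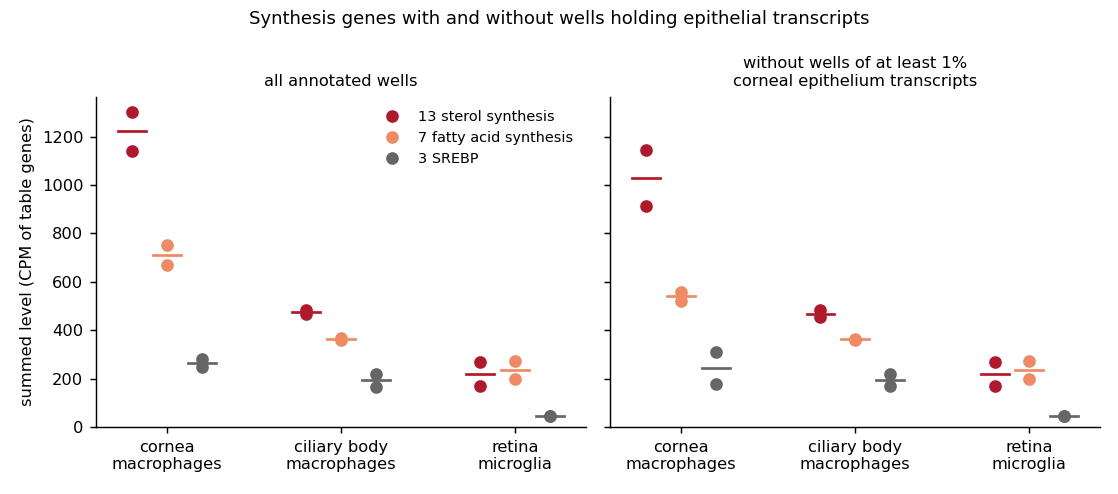
Summed level in CPM of the 13 sterol synthesis, 7 fatty acid synthesis and 3 SREBP genes in cornea macrophages, ciliary body macrophages and retinal microglia, with all annotated wells (left) and without wells in which corneal epithelium markers hold at least 1% of transcripts (right); points are library pairs and lines their mean. Sterol synthesis stands at 1142 and 1302 CPM in all cornea wells and at 1146 and 915 CPM in those left, above the ciliary body sums in both panels.

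The authors' macrophage clusters differed in both arms, again as a description. Cluster 6, with 12 of its 13 wells from the cornea, held Scd2 at 698 CPM, Hmgcs1 at 357 CPM and Apoe at 4065 CPM. Cluster 7, with 21 of its 29 wells from the ciliary body, held Scd2 at 75.2 CPM, Hmgcs1 at 33.4 CPM, Apoe at 42647 CPM and Abca1 at 694 CPM. Cluster 8, with 13 wells from the cornea and 17 from the ciliary body, held Apoe at 37732 CPM, and cluster 16, with 7 of its 8 wells from the cornea, held Ch25h at 701 CPM.

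In the wider pathway, 6 of the 21 tested genes outside the 38 were higher in cornea macrophages than in microglia and 3 were lower, beside 17.3% of all genes higher and 15.8% lower. In the other uptake and storage list, 4 of 9 tested genes were higher in both kinds of macrophage and 1 lower. Genes with few microglial transcripts entered the test through the macrophage sums, where they are high, so these counts are a description. Cd36, a fatty acid transporter, had 131 to 208 CPM in the cornea, 148 to 165 CPM in the ciliary body and 1 transcript in microglia. Lgals3, a galectin of macrophages, had 622 to 913 CPM in the cornea, 596 to 779.6 CPM in the ciliary body and 34.3 to 61.6 CPM in microglia. Its log2 fold change was 4.33 ± 0.42 in the cornea (adjusted p = 2.83e-06) and 4.24 ± 0.42 in the ciliary body (adjusted p = 3.16e-06). Trem2 was lower, at 79.4 to 92.3 CPM in the cornea, 137 to 158 CPM in the ciliary body and 927 to 1247 CPM in microglia. Its log2 fold change was -3.41 ± 0.33 in the cornea (adjusted p = 2.44e-06) and -2.57 ± 0.30 in the ciliary body (adjusted p = 1.50e-05). Stard4, a carrier of sterol between membranes, had 64.5 to 82.6 CPM in the cornea, 42.3 to 54.4 CPM in the ciliary body and 2 transcripts in microglia, and passed in both (adjusted p = 0.0142 in the cornea and 0.0445 in the ciliary body). Scap, the escort of SREBP, fell in the cornea (log2 -1.91 ± 0.71, adjusted p = 0.0454). Fads1, a desaturase of polyunsaturated fatty acids, was higher by 2.55 ± 0.54 on the log2 scale in the cornea (adjusted p = 0.00213) and 1.70 ± 0.57 in the ciliary body (adjusted p = 0.0312). Mlxipl was lower in both, with 3 transcripts in the cornea, 7 in the ciliary body and 87 in microglia (adjusted p = 9.15e-06 in the cornea and 7.08e-06 in the ciliary body).

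In the lasered retina, dendritic cells were compared with microglia of the same library pairs. At day 3, 2 of 16 tested genes were higher and 7 lower in dendritic cells, against 23.3% of all 3586 genes called (11.7% higher, 11.6% lower). At day 7, 3 were higher and 6 lower, against 21.9% of all genes (11.3% higher, 10.6% lower). All the lower genes belong to the efflux and uptake lists, and Srebf2 and Elovl5 of the synthesis lists were higher on both days. Of the synthesis genes only Srebf2, Elovl5 and Acly were tested, so this split between the lists is a description. Srebf2 and Elovl5 did not pass the filter in microglia alone and were tested here through other classes, where they are high. The difference between the 2 days passed for no member in edgeR, where 0.335% of all genes passed (0.223% higher, 0.112% lower), and for none in DESeq2. The smallest adjusted p among the members was 0.408, and 2 genes had an unadjusted p under 0.05. Without the filter on low counts Fabp5 passed for this difference (log2 4.39, adjusted p = 0.0016). Fabp5 was also called as higher in dendritic cells at day 7 in DESeq2 (adjusted p = 0.00741), without the filter (1.19e-06) and without the block on the prefix (0.0281). Of its 27 day 7 dendritic transcripts, 96.3% lay in 3 of 26 wells. Apoe was called as lower at day 3 in DESeq2 (adjusted p = 4.24e-04) and in single libraries (0.00289).

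At day 3 Srebf2 had 166 and 109.9 CPM in dendritic cells and 9.13 and 22.9 CPM in microglia. The day 7 sums were 231 and 65.9 CPM in dendritic cells and 19.5 and 0 CPM in microglia. The dendritic sums were above the microglia sums on both days, by 2.83 ± 0.57 on the log2 scale at day 3 (adjusted p = 3.07e-04) and by a ratio of 15.6 (interval 4.75 to 81.1) at day 7 (adjusted p = 2.91e-04). At day 3 Elovl5 had 179 and 101 CPM in dendritic cells and 36.5 and 55.0 CPM in microglia. At day 7 it had 154 and 154 CPM in dendritic cells and 32.5 and 44.2 CPM in microglia. Its log2 fold change was 1.44 ± 0.45 at day 3 (adjusted p = 0.0168) and 2.09 ± 0.58 at day 7 (adjusted p = 0.00858). At day 7 Plin2 was also higher, at 132 and 22.0 CPM in dendritic cells and 13.01 and 17.7 CPM in microglia (log2 2.46 ± 0.83, adjusted p = 0.0266). That call rests on pair P1, since without it the log2 fold change was 0.37 (adjusted p = 0.942). At day 3 Plin2 had 134 and 151 CPM in dendritic cells and 109.6 and 132.8 CPM in microglia.

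At day 3 Lpl had 19.2 and 15.1 CPM in dendritic cells and 557 and 449 CPM in microglia. The day 7 sums were 0 and 22.0 CPM in dendritic cells and 130.1 and 176.97 CPM in microglia. It was lower, with a log2 fold change of -4.75 ± 0.44 at day 3 (adjusted p = 1.39e-09), and its day 7 ratio was 0.0489 (interval 0.00121 to 0.288) (adjusted p = 9.56e-04). At day 3 Lrp1 had 6.39 and 32.3 CPM in dendritic cells and 739.7 and 568 CPM in microglia. At day 7 it had 22.0 and 22.0 CPM in dendritic cells and 384 and 380.5 CPM in microglia. It was lower, with a log2 fold change of -4.50 ± 0.48 at day 3 (adjusted p = 2.46e-07) and a ratio of 0.0575 (interval 0.0117 to 0.173) at day 7 (adjusted p = 3.16e-04). At day 3 Abca1 had 19.2 and 47.4 CPM in dendritic cells and 128 and 219.9 CPM in microglia. The day 7 sums were 11.0 and 43.9 CPM in dendritic cells and 299 and 380.5 CPM in microglia. It was lower on both days, with a log2 fold change of -2.27 ± 0.43 at day 3 (adjusted p = 1.53e-04) and, from 3 dendritic transcripts, a ratio of 0.0659 (interval 0.0133 to 0.199) at day 7 (adjusted p = 2.84e-05). Ch25h had 0 and 8.62 CPM in dendritic cells and 292 and 211 CPM in microglia at day 3 (log2 -5.05 ± 0.77, adjusted p = 3.91e-06) and was not called at day 7, where microglia had 7 transcripts.

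Apoe had 539 and 945 CPM in dendritic cells and 9538 and 10981 CPM in microglia at day 7, a log2 fold change of -3.79 ± 0.80 (adjusted p = 0.0373). This call was lost when either day 7 pair was left out (adjusted p = 0.358 without P1 and 0.371 without P2). At day 3 Npc2 had 269 and 299 CPM in dendritic cells and 466 and 774 CPM in microglia. At day 7 it had 396 and 417 CPM in dendritic cells and 846 and 628 CPM in microglia. This gave a log2 fold change of -1.08 ± 0.25 at day 3 (adjusted p = 0.00163) and -0.82 ± 0.28 at day 7 (adjusted p = 0.0354). At day 3 Mylip had 83.1 and 58.2 CPM in dendritic cells and 164 and 151 CPM in microglia. The day 7 sums were 55.0 and 43.9 CPM in dendritic cells and 267 and 150.4 CPM in microglia. The log2 fold change was -1.17 ± 0.42 at day 3 (adjusted p = 0.0388) and -2.10 ± 0.60 at day 7 (adjusted p = 0.00977). Npc1, the membrane partner of Npc2 in the lysosome, had 70.3 and 58.2 CPM in dendritic cells and 201 and 119.1 CPM in microglia at day 3 (log2 -1.18 ± 0.44, adjusted p = 0.0477). The day 3 calls of Mylip, Npc1 and Elovl5 and the day 7 calls of Elovl5, Mylip, Npc2 and Plin2 did not pass in DESeq2. Without the block on the prefix, Mylip (adjusted p = 0.0658) and Npc1 (0.0527) at day 3 and Npc2 (0.0803) at day 7 did not pass. Leaving out 1 pair ended further calls, given here with the adjusted p without it. At day 3 these were, without P1, Elovl5 (0.428), Mylip (0.144) and Npc1 (0.438), and without P2, Mylip (0.549), Npc1 (0.213) and Npc2 (0.412). At day 7, without P1, they were Elovl5 (0.217), Lpl (0.0914), Mylip (0.340), Npc2 (0.541) and Srebf2 (0.0794), which leaves the 10 wells of P2 as the only day 7 dendritic sum. The Npc2 call of day 7 was also lost without either day 3 pair (adjusted p = 0.0601 without P1 and 0.0504 without P2).

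The joint class held monocytes, lymphocytes and granulocytes together, so its levels are averages over unlike cells. Against microglia, 1 of the 16 tested genes was higher and 5 lower at day 3, beside 16.5% of all genes called (7.45% higher, 9.09% lower). At day 7 again 1 was higher and 5 lower, beside 24.5% (11.4% higher, 13.1% lower). At day 3 Lpl had 46.9 and 22.4 CPM in the joint class and 557 and 449 CPM in microglia (log2 -3.95 ± 0.50, adjusted p = 9.45e-07). At day 7 it had 66.1 and 57.2 CPM in the joint class and 130.1 and 176.97 CPM in microglia and did not pass (log2 -1.36 ± 0.54, adjusted p = 0.0594). Of the 16 tested genes Lpl had the smallest adjusted p for a change of this difference between the days, at 0.0891 (log2 2.59 ± 0.84). It did not pass, where 2.87% of all genes did (1.65% higher). An unadjusted p under 0.05 was found for 5 genes. DESeq2 called 1, Apoe (log2 -2.81, adjusted p = 0.0459), and gave no adjusted p for 10 of the 16. Apoe also passed for this change in single libraries (adjusted p = 0.0457). Without the filter on low counts Fabp5 was called as higher in the joint class at day 7 (log2 3.59, adjusted p = 1.11e-04). Of its 27 transcripts there, 92.6% lay in 5 of 41 wells.

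Ch25h had 0 and 11.2 CPM in the joint class and 292 and 211 CPM in microglia at day 3, a ratio of 0.0241 (interval 0.000602 to 0.138) (adjusted p = 2.09e-04). At day 3 Lrp1 had 329 and 101 CPM in the joint class and 739.7 and 568 CPM in microglia. The day 7 sums were 47.2 and 0 CPM in the joint class and 384 and 380.5 CPM in microglia. This gave a log2 fold change of -1.76 ± 0.42 at day 3 (adjusted p = 0.00485) and -3.77 ± 0.66 at day 7 (adjusted p = 1.81e-04). At day 3 Abca1 had 35.2 and 112 CPM in the joint class and 128 and 219.9 CPM in microglia. At day 7 it had 37.8 and 57.2 CPM in the joint class and 299 and 380.5 CPM in microglia. Its log2 fold change was -1.36 ± 0.48 at day 3 (adjusted p = 0.0485) and -3.00 ± 0.51 at day 7 (adjusted p = 4.22e-05). These 3 genes were lower in the joint class than in microglia wherever they passed.

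Srebf2 was the gene higher at day 3, at 93.9 and 89.6 CPM in the joint class and 9.13 and 22.9 CPM in microglia (log2 2.13 ± 0.71, adjusted p = 0.0323). Acly was lower, at 11.7 and 44.8 CPM in the joint class and 128 and 188 CPM in microglia (log2 -2.57 ± 0.62, adjusted p = 0.00278). At day 7 Apoe had 963 and 1524 CPM in the joint class and 9538 and 10981 CPM in microglia (log2 -3.25 ± 0.75, adjusted p = 0.0450). Npc2 had 453 and 381 CPM in the joint class and 846 and 628 CPM in microglia (log2 -0.97 ± 0.27, adjusted p = 0.00877). Lpcat3 had 18.9 and 0 CPM in the joint class and 149.6 and 88.5 CPM in microglia, a ratio of 0.102 (interval 0.0119 to 0.399) (adjusted p = 0.00972). These 3 genes were lower. Plin2 was higher at day 7, at 160.5 and 19.1 CPM in the joint class and 13.01 and 17.7 CPM in microglia (log2 2.49 ± 0.78, adjusted p = 0.0158). The 2 joint sums of Plin2 lay far apart, and without pair P1 the log2 fold change was -0.06. In DESeq2 the day 3 calls of Abca1 (adjusted p = 0.273), Lrp1 (0.173) and Srebf2 (0.136) and the day 7 calls of Lpcat3 (0.0896), Npc2 (0.0883) and Plin2 (0.112) did not pass. Without the block on the prefix, Abca1 at day 3 (adjusted p = 0.0698) and Apoe at day 7 (0.0570) did not pass. Other calls were lost without 1 pair, given with the adjusted p without it. At day 3, without P1, they were Abca1 (0.387), Acly (0.0599) and Srebf2 (0.320). Without P2 they were Abca1, Acly, Lrp1 and Srebf2, from 0.0630 for Acly to 0.301 for Abca1. At day 7 they were Apoe (0.366 without P1, 0.381 without P2), and Lpcat3 (0.0872) and Npc2 (0.204) without P1. Abca1 at day 3 was also lost without either day 7 pair (0.0548 without P1, 0.0527 without P2).

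**Figure D5:**
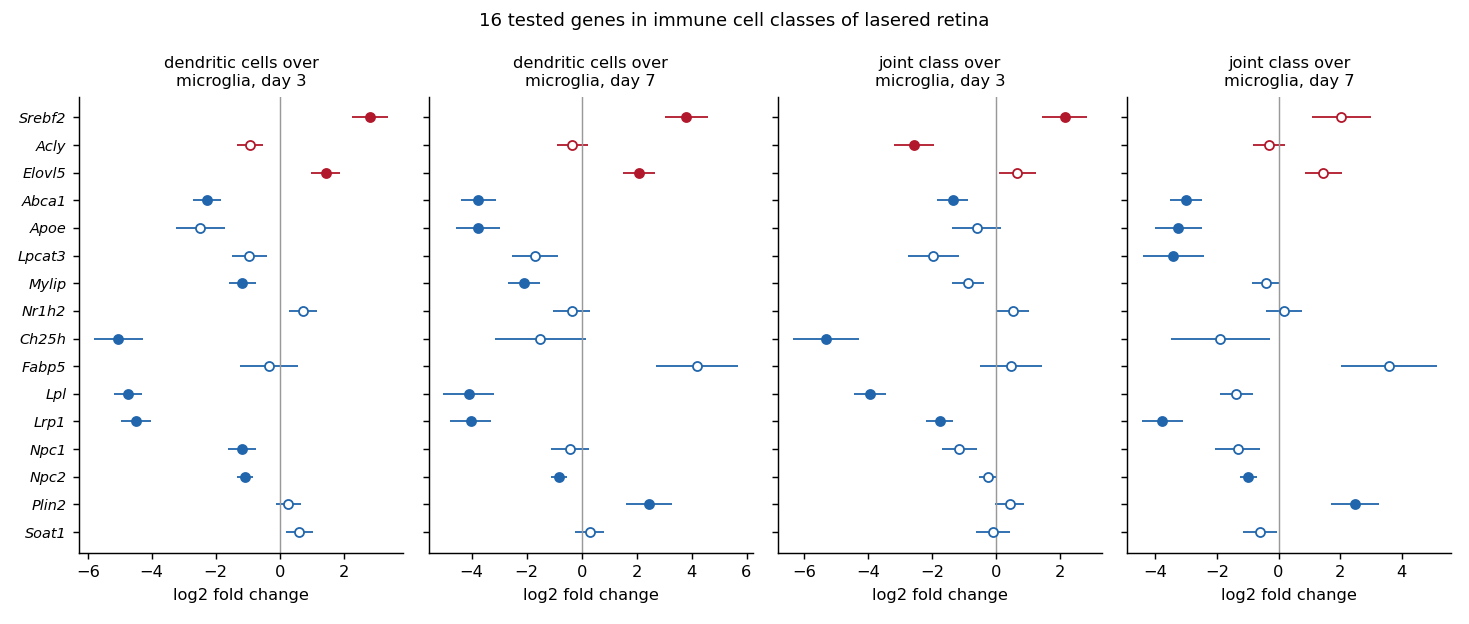
Log2 fold change with its SE for the 16 tested genes in dendritic cells and in the joint class over microglia of the same library pairs, at day 3 and day 7 after laser (horizontal axes differ). Red marks synthesis genes, blue efflux and uptake genes, and filled points have an adjusted p under 0.05. Abca1 and Lrp1 are filled and left of 0 in all 4 panels.

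Outside the 38 genes, Trem2 and Mlxipl were lower than in microglia in all 4 of these comparisons. Trem2 had 6.39 to 28.0 CPM in dendritic cells, 23.5 to 112 CPM in the joint class and 621 to 751 CPM in microglia at day 3. Gpnmb, a glycoprotein of lipid-laden macrophages, was higher in the joint class on both days, at 101 to 329 CPM in the joint class and 22.9 to 45.7 CPM in microglia at day 3. Its day 7 total was 78 transcripts in the joint class, at 19.1 to 727 CPM, and 0 in microglia. Dendritic cells had 0 Gpnmb transcripts on both days. Lgals3 was higher in the joint class on both days (adjusted p = 0.0437 at day 3 and 0.0257 at day 7) and in dendritic cells at day 7 (adjusted p = 0.0334).

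The remaining members had no call. Soat1, which esterifies cholesterol for storage, had 109 and 123 CPM in dendritic cells, 93.9 and 67.2 CPM in the joint class and 82.2 and 77.9 CPM in microglia at day 3. In the unlesioned eye it had 49.6 and 68.001 CPM in the cornea, 84.6 and 95.8 CPM in the ciliary body and 77.0 and 54.9 CPM in the retina. Nr1h2, which encodes the broadly expressed LXR, had 141 and 94.8 CPM in dendritic cells, 117 and 101 CPM in the joint class and 54.8 and 77.9 CPM in microglia at day 3. Abcg1, a second exporter of cholesterol, was not tested, and had 44.0 and 176 CPM in dendritic cells, 56.6 and 57.2 CPM in the joint class and 84.6 and 53.1 CPM in microglia at day 7. For each of the other 10 untested genes the highest group mean was between 17.6 CPM, for Nr1h3, the LXR gene of macrophages, and 63.9 CPM. At these depths a gene with a few transcripts per sum gives no ground for a statement in either direction.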

How the data were processed

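The 20 library tables hold estimated (expected) counts of transcripts per gene and well, corrected by the authors for molecular identifiers, and the 2 annotated tables hold the same unnormalized estimated counts as deposited, with the authors' clusters and cell types but no gene names. The submitters' processing notes name BWA 0.6.2-r126, and the genome build is not given in the sources used here. Each annotated well (511 of the retina table, 429 of the eye table) was contained in the same-numbered well of a library of its prefix and condition, and genes were taken from there, matched to 4 decimals. The tables leave out 96 (retina) and 276 (eye) genes, 15 of them mitochondrial, with 37.2% and 38.9% of transcripts. Cells are not replicates: counts were summed per class, group and prefix, rounded to whole numbers, and tested with edgeR 4.0.16 (R 4.3.3; quasi-likelihood test, low counts filtered, TMM scaling, robust, Benjamini-Hochberg over all genes tested, threshold 0.05). All groups of a tissue set shared 1 fit, and the laser classes had the prefix of each day as a block. SE is that of the log2 fold change. A ratio with its 95% exact interval, for groups of 1 to 3 transcripts, covers counting error only. DESeq2 1.42.0 was an alternative. Low-count wells, doublets and free RNA were treated only by the authors' annotation, and the alternatives include wells with at least 1000 transcripts and at most 25% mitochondrial ones. The members and gene lists were chosen with earlier results of these data known. Members are named with full values where they passed, or without any call where a group mean reached 100 CPM, and up to 3 other pathway genes per list and comparison. All library genes, wells without cell cycle or corneal epithelium transcripts, and another total for summed levels were alternatives chosen after seeing the data. The scripts were tested on simulated data.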

Additional observations from a re-analysis of the deposited data

Results flagged for a closer look

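In microglia, the difference from unlesioned retina was not the same on both days after laser for 4 genes, by the test of day 7 against day 3 itself. The log2 fold change of day 7 over day 3 was -3.16 for Ch25h (adjusted p = 0.00109), -3.09 for Fabp5 (adjusted p = 0.0251), -1.71 for Lpl (adjusted p = 0.00235) and -2.95 for Plin2 (adjusted p = 0.0149), with both day 7 sums below both day 3 sums for each gene. The summed cell cycle markers also differed between the days, as given above. All 4 calls held without the wells in which those markers held at least 0.1% of transcripts. In wells that the authors' signature also calls microglia, Plin2 was lost in edgeR (log2 -2.37, adjusted p = 0.165). Plin2 and Fabp5 were also lost in fits that left out a library pair, as given above. Ch25h and Lpl held in every setting that tested them.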

How the results depend on the processing

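Numbers of the 38 genes called moved with the setting. For microglia at day 3 over unlesioned retina (5 called) DESeq2 called 0, single libraries 2 and wells with a microglia signature 3. Of the 2 calls in single libraries 1 was higher and the other was Mylip as lower. Lpl did not pass there (adjusted p = 0.0675). At day 7 over unlesioned retina (0 called) DESeq2, single libraries and the signature each called 1, and at day 7 over day 3 (4 called) DESeq2 called 1. For cornea macrophages over microglia (18 called) single libraries called 11 and leaving out epithelium wells 9, for ciliary body macrophages (11 called) DESeq2 called 7, and for cornea over ciliary body (3 called) DESeq2 and leaving out epithelium wells each called 1. The 9 calls without epithelium wells include Mylip as lower (adjusted p = 0.0412), which was not among the 18. For dendritic cells at day 3 (9 called) single libraries called 5, for the joint class at day 3 (6 called) DESeq2 called 3 and single libraries 2, and at day 7 (6 called) DESeq2 called 3. Leaving out 1 pair, where the lone sum is assumed to vary like the others, gave 3 to 5 calls in microglia at day 3, 0 to 1 at day 7, 2 to 6 for day 7 over day 3, 14 to 18 for cornea and 6 to 13 for ciliary body over microglia, 1 to 5 between the macrophages, 7 to 9 and 3 to 9 for dendritic cells at day 3 and day 7, and 2 to 6 and 2 to 7 for the joint class at day 3 and day 7. The 1 reversed value was Plin2 in the joint class at day 7, -0.06 without the day 7 pair P1, against 3.37 without P2. Of 71 calls, 29 held in every setting that tested them. A replicate block on the prefix gave 6, 0 and 6 calls in the 3 microglia comparisons. Same-numbered sums deviated together with r of 0.020, 0.193 and -0.079 over 3408 genes. With only 2 sums in a group, these values cannot decide whether a common prefix stands for a common batch, which was not tested. The median log2 fold change of all genes was 0.17 for cornea over microglia with all library genes, against 0.05. The cause of these differences between settings was not tested. Synthesis genes near the detection limit in microglia bound what the depth can show.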
